A study of Mus musculus with 6 samples.

Results

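The 10 genes described here encode subunits of the transcription factor AP-1 and related immediate early factors: Fos, Fosb, Fosl1, Fosl2, Jun, Junb, Jund, Atf3, Egr1 and Egr2. They were listed by name, and where a gene had several transcripts the one with the largest mean normalised count stood for it. All 10 were found among 19271 genes with reads, and all 10 passed a minimum mean of 10 normalised counts. RNA-Seq was done on mouse embryonic fibroblasts (MEFs), cells grown out of embryonic connective tissue, with 3 WT libraries and 3 Anp32e null libraries. The cultures were below passage 8 and had been plated at 200000 cells 1 day before RNA was taken. The product of Anp32e binds the variant histone H2A.Z and limits where it is kept in the genome. The labels do not say whether the 3 libraries of a genotype came from separate embryos or cultures.

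The values described are the authors' means over all 6 libraries, WT and Anp32e null pooled, so no difference between the genotypes is reported for any gene. A mean of this kind has no SD over libraries. The pooled mean of Anp32e itself was 2190 normalised counts, and a mean over both genotypes does not check the labels. Levels are compared between genes as mean normalised counts per kb of spliced transcript, with each gene placed among the 18732 genes that had reads and a transcript length. The median of those genes was 145.5 mean normalised counts per kb.

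AP-1 is a dimer of basic leucine zipper proteins. Jun proteins pair with each other or with Fos proteins, whereas Fos proteins need a partner. Growth factors and stress act through MAP kinases to switch immediate early genes on within minutes, and many of their mRNAs are short-lived; in fibroblasts, serum is the classical trigger.

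The Jun family, which supplies a subunit to most AP-1 dimers, was among the more abundant transcripts. Positions are those of the RefSeq genes in GRCm38.p6, the mm10 build. Jun (chr4:95049036-95052222) had a mean of 7676 normalised counts, or 2407 per kb, above 90.6% of genes. Junb (chr8:84976909-84978748) reached 3132 mean normalised counts per kb, above 92.9% of genes. With the outer ends of the RefSeq genes in place of those of GENCODE, Jun was at 2408 and Junb at 3079 mean normalised counts per kb, each within a few percent of its level above.

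Jund (chr8:70697739-70700616), the member usually expressed at a steady level in resting cells, had a mean of 5641 normalised counts, and its level per kb depended on which annotation gave its length. With the GENCODE length of 1668 bases it stood at 3382 mean normalised counts per kb, the highest of the 10 genes. The RefSeq gene reaches 1210 bases further upstream, and with that end the level was 1960 per kb, below Junb, Fosl1 and Jun. The means are given for RefSeq transcripts, whose exons were not at hand, so spliced lengths came from GENCODE. The order of these genes by level therefore depended on the length used, and Jund was highest only with the GENCODE length.

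The Fos family, whose proteins join AP-1 only as partners, spanned a much wider range. Fosl1 (chr19:5447698-5455938), which encodes Fra-1, was at 2512 mean normalised counts per kb, above 91.1% of genes. Fosl2 (chr5:32136472-32157840), which encodes Fra-2, was at 1088 mean normalised counts per kb, above 81.1% of genes. Both Fra genes stood in the top 25% of genes, together with the Jun family, which made 5 of the 10 genes there. Among the 13967 genes with a mean of at least 10 normalised counts, Fosl2 stood above 74.6%, just outside the top 25%, which left 4 of the 10 genes there.

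Fos (chr12:85473890-85477274), the founding member of the family, was at 204.0 mean normalised counts per kb, above 54.4% of genes. Fosb (chr7:19302696-19310118) was the lowest of the 10 genes at 40.2 mean normalised counts per kb, above 37.8% of genes. Among the genes with a mean of at least 10 normalised counts, Fos stood above 38.8% and Fosb above 17.7%, so that Fos lay above the median in the wider ranking and below it in the narrower one. The level per kb of Fosl1 was 12.3 times that of Fos, and that of Fos was 5.07 times that of Fosb. The genes that encode the Fra proteins thus carried most of the family's RNA. Without length scaling Fosl2 was above Fosl1, with a mean of 7115 against 4683 normalised counts, and Fos was 2.83 times Fosb. Within the summed Fos family level per kb, Fosl1 made up 65.3%, Fosl2 28.3%, Fos 5.31% and Fosb 1.05%. The Jun family was more even, with a highest level per kb 1.41 times its lowest, against 62.5 times in the Fos family. The value of 1.41 sets Jund against Jun. With the RefSeq ends Jund was instead the lowest of the Jun family at 1960 mean normalised counts per kb, and Junb the highest at 3079.

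Set against each other, the Jun family held 69.9% of the summed Fos and Jun family level per kb. With the outer ends of the genes as in RefSeq this share was 63.9%, and with no length scaling it was 60.5%. It was the larger part under each of these choices.

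Atf3 (chr1:191170296-191183333), a stress-induced factor that pairs with Jun proteins, was at 161.6 mean normalised counts per kb, above 51.4% of genes. Egr1 (chr18:34861207-34864956), a zinc finger factor induced by the same signals as Fos, was at 455.9 mean normalised counts per kb, above 67.1% of genes. Its level per kb was 2.23 times that of Fos. Egr2 (chr10:67534469-67542188), best known for its role in myelination and hindbrain patterning, was at 68.5 mean normalised counts per kb, above 42.2% of genes. Egr1 was 6.66 times Egr2 in level per kb. Among the genes with a mean of at least 10 normalised counts, Egr1 stood above 55.9%, Atf3 above 34.8% and Egr2 above 23.1%, which put Atf3, like Fos, below the median of that ranking.

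**Figure D1:**
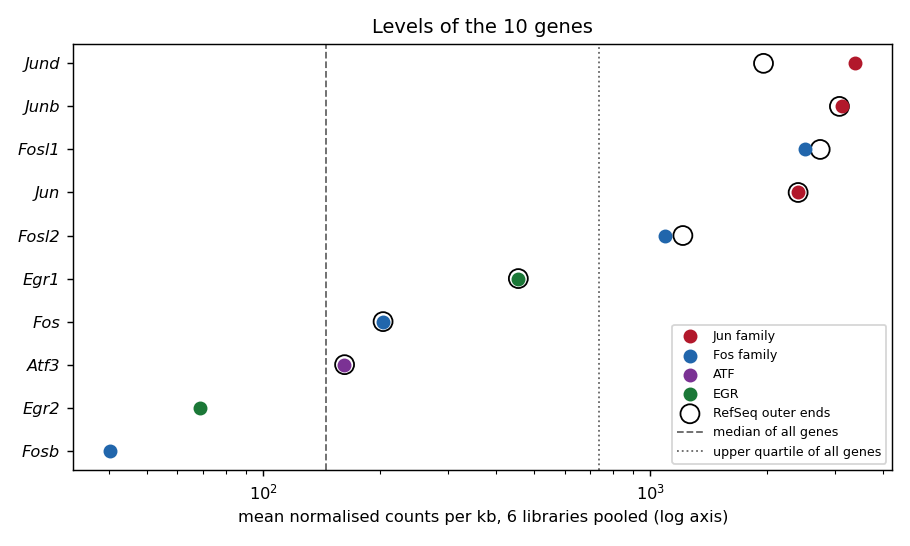
Mean normalised counts per kb of each gene over the 6 pooled libraries, on a log axis, with filled points for GENCODE lengths coloured by family and open circles for the RefSeq outer ends where these could be set. Dashed and dotted lines mark the median and the upper quartile of all genes; 5 of the 10 genes lie right of the dotted line, and Jund moves most between the length sources.

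The depth behind these means was bounded from the value that 1 read adds to a mean, which differed 1.24-fold between the library with the largest and that with the smallest step. Fosb, the lowest gene, rested on 830 to 1031 reads over the 6 libraries, and Jun on 41862 to 52080. Counting error alone was thus at most 3.47% of the mean for Fosb and 0.489% for Jun. The spread between libraries is not known for these means, so which neighbours in the order differ beyond it could not be told.

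The table held 1 transcript for 7 of the genes and more than 1 for Fosb, Egr2 and Jund. The Jund transcripts had the same mean of 5641 normalised counts. For Fosb and Egr2 the means differed slightly, and the difference could be resolved into whole reads in each of the 6 libraries, taking every read of the lower transcript to be counted on the higher one too. These libraries carry no name, are numbered here by the step that 1 read makes, and were put in neither genotype.

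The Fosb transcripts differed by 22 reads, 2.40% of the higher mean. By library the reads on the higher Fosb transcript alone were 6, 0, 4, 5, 2 and 5, with a median of 4.5. A single library had none, and the others held few.

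The Egr2 transcripts differed by 102 reads, 8.38% of the higher mean. By library the reads on the higher Egr2 transcript alone were 13, 12, 27, 16, 23 and 11, with a median of 14.5. Every library held such reads for Egr2, with libraries 3 and 5 highest.

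**Figure D2:**
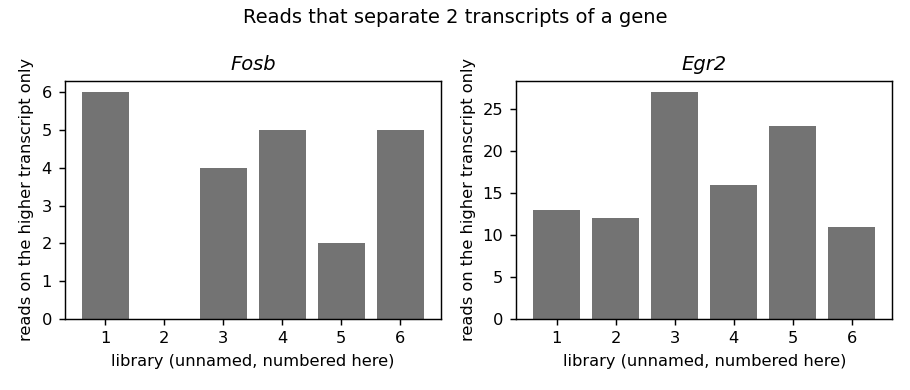
Reads counted on the higher but not the lower of a pair of transcripts of Fosb (left) and Egr2 (right), 1 bar for each of the 6 unnamed libraries, in the order of the step of 1 read. Fosb bars run from 0 to 6 reads and Egr2 bars from 11 to 27 reads.

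The genes differed in structure by family. Jun, Junb and Jund each had 1 exon in GENCODE, as did 3.65% of coding genes with reads, whose median was 8 exons. Fos, Fosb, Fosl1, Fosl2 and Atf3 had 4 exons each, Egr1 had 3 and Egr2 had 2.

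AU-rich elements in the 3' UTR, built on the pentamer ATTTA, are a known mark of short-lived mRNAs. All 10 genes held at least 1 pentamer on the sense strand, as did 64.6% of 15781 coding genes with reads. Fos had 4.91 pentamers per kb of 3' UTR, Junb 4.12 and Jun 3.24, against a median of 1.16 over coding genes. All but Fosb, at 0.466 per kb, were above that median. The nonamer TTATTTATT occurred in Fos and Fosl2 and in 7.0% of coding genes.

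**Figure D3:**
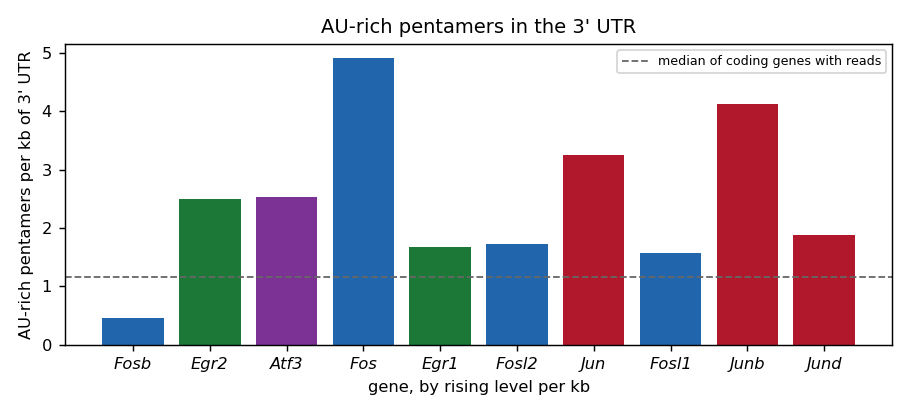
AU-rich pentamers per kb of 3' UTR in each of the 10 genes, ordered by rising level per kb and coloured by family, with a dashed line at the median of coding genes with reads (1.16). Fos is highest at 4.91 and Fosb is the only bar under the line.

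Promoter sequences from RefSeq (GRCm38.p6), 250 bases before to 50 after the start, were held for 8 of the 10 genes, all but Fosl1 and Egr1. The windows sit on RefSeq starts, and that of Jund lies 1210 bases upstream and that of Fosl2 671 bases downstream of the GENCODE start. Egr2 had 5 windows, and the one listed first, used for the counts, lies 2370 bases upstream of the transcript that gave its level. Motifs were searched on both strands and a match is only a description. The GC box GGGCGG was found in 6 of the 8 and in 35.9% of 27025 promoters, CCAAT in 3 and 37.9%, and TATAAA in 2 and 14.2%. The AP-1 site TGACTCA and the full cAMP response element TGACGTCA were found in 0 of the 8, and in 5.17% and 1.88% of promoters. Only these exact letters were searched, so variants of either site were not counted. A CArG box was found in 0 of the 8 windows and in 1.57% of promoters. Bases further than 250 upstream of a start, and the promoters of Fosl1 and Egr1, were not searched for this or any other motif. The count of 0 therefore does not show that these genes lack a CArG box. The Egr motif GCGNGGGCG, which can overlap the GC box, was found in Fosl2 and Fosb and in 5.55% of promoters. With the Egr2 window at the start of its transcript instead, a choice made after the data were seen, GGGCGG was found in 5 of the 8, CCAAT in 4 and a CArG box in 1, which is Egr2.

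The core TGACGT, which is part of the full cAMP response element, was found in Fos and Atf3 and in 7.64% of promoters, and also in Egr2 with the window at the start of its transcript. The stretches of 30 bases that hold it in Fos and Atf3 are shown because these genes share it in their only listed window, with the match in capitals, read 5' to 3' on the strand of the gene; in Atf3 the match is on the opposite strand. Fos lies at chr12:85473812-85473841 on the plus strand and Atf3 at chr1:191183334-191183363 on the minus strand.
Fos: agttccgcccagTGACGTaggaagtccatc
Atf3: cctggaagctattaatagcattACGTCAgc

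Beside these genes, 14 of 29 other immediate early genes stood in the top 25% by level per kb, led by Ccn2 at 31440 mean normalised counts per kb, Ccn1 at 24717 and Sgk1 at 5614. Egr4 was lowest of that list at 1.34 per kb. Their median was 572.5 mean normalised counts per kb, against 772.2 for the 10 genes. The latter falls in a wide gap between Egr1 at 455.9 and Fosl2 at 1088. In shares the lists were close, with 23 of 29 above the median of all genes against 8 of the 10 genes. In the top 25% there were 14 of 29 against 5 of the 10 genes.

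Of 13 other leucine zipper partners, 3 were in the top 25%, Maff at 2235, Jdp2 at 1895 and Mafk at 1438 mean normalised counts per kb. Batf was lowest at 0.475 per kb, and Batf2 and Nrl had no reads. Of 22 upstream kinases and factors, 11 were in the top 25%, led by Srf at 5436, Rps6ka4 at 4803 and Map2k2 at 4472 mean normalised counts per kb, with Mapk10 lowest at 0.0835.

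Of 16 feedback inhibitors and mRNA decay factors, 6 were in the top 25%, led by Nab2, a corepressor of Egr proteins, at 2275 mean normalised counts per kb, Dusp1 at 1893 and Zfp36l2 at 1707, with Dusp2 lowest at 21.3. Of 19 textbook AP-1 targets, 11 were in the top 25%, among them Timp1 at 31041 and Spp1 at 20831 mean normalised counts per kb, with Mmp9 lowest at 6.63.

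The fibroblast label was checked against markers, of which 10 of 15 stood in the top 25%. Vim was at 150796, Fn1 at 10396 and Col1a2 at 4411 mean normalised counts per kb, while Lum was lowest at 0.544. Lum was not the only low marker, since 11 of the 15 stood above the median of all genes. A mean of at least 10 normalised counts was reached by 13 of the 15. The median marker level per kb was 1133 for fibroblasts, against 8.06 for epithelial, 6.03 for endothelial, 0.943 for macrophage, 0.394 for skeletal muscle, 1.62 for neural and glial and 0.262 for erythroid markers. Most markers of other types had some reads, and the highest of their lists were Acta1 at 3258, Krt18 at 769.4, Kdr at 499.2, Tubb3 at 394.8, Cd68 at 209.1 and Alas2 at 8.56 mean normalised counts per kb. Myod1, Myf5 and Hbb-bt had no reads. Their part in the levels of the 10 genes was not tested.

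**Figure D4:**
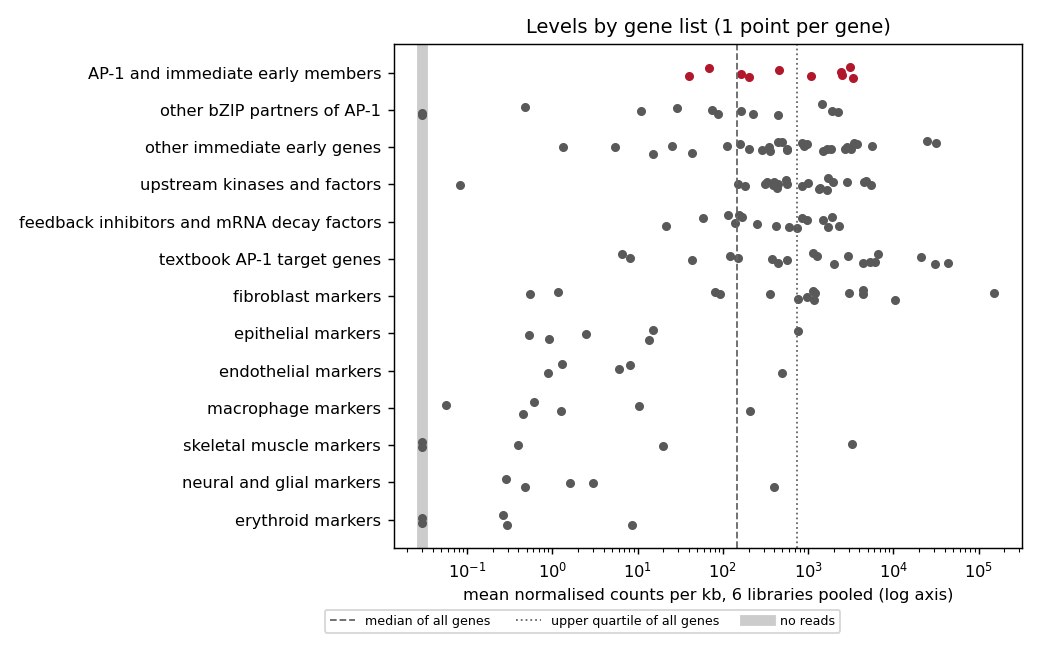
Mean normalised counts per kb of every listed gene, 1 point per gene on a log axis, 1 line per list, with the 10 genes in red and genes without reads on the grey band. Dashed and dotted lines mark the median and the upper quartile of all genes; 10 of 15 fibroblast markers lie right of the dotted line, and so do Krt18 and Acta1 among the markers of other cell types.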

How the data were processed

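RNA-Seq was done on 3 WT and 3 Anp32e null MEF libraries. The submitters' processing notes name STAR, Subread featureCounts, DESeq2 and the mm10 build. The deposited signal used is the authors' mean over the 6 libraries of counts divided by DESeq2 size factors, given for 42361 RefSeq transcripts. The other columns hold the authors' own comparison of the genotypes (log2 fold change, its standard error, the test statistic and p-values) and were not used. Without values per named library, the planned count test between genotypes was not run.

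RefSeq accessions were matched to symbols with the RefSeq gene table (GRCm38.p6), leaving 163 unmatched. Spliced lengths came from GENCODE vM21, and each gene took its highest-mean transcript that had a length, which gave 97.2% of genes with reads a level. For the 10 genes this was the transcript with the highest mean overall. A transcript's reads are shared with others of its gene. Outer ends as in RefSeq were applied to 8 genes as an alternative chosen after the data were seen.

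The 6 smallest means gave the step of 1 read in each library, and 377 of 377 distinct means below 1 were whole sums of these steps within the rounding of the file. Reads are given only where 1 solution was left with a tolerance 10 times wider. This recovery of reads was tested on simulated data. Of each further list, the 3 highest genes, the lowest with reads and those without reads are named, apart from genes that are not reported here; other names were chosen after their values were seen. The members and lists were chosen with earlier results of these data known. Python 3.11.15, numpy 2.4.6, pandas 2.3.3 and matplotlib 3.10.9 were used.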

Additional observations from a re-analysis of the deposited data

How the results depend on the processing

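The Jun family share of the summed Fos and Jun family level per kb was 69.9%, and moved to 60.5% with no length scaling and to 63.9% with the outer ends of the genes as in RefSeq, an alternative chosen after the data were seen. The count of the 10 genes in the top 25% was 5, and 4, without Fosl2, when only genes with a mean of at least 10 were ranked; it was 5 among coding genes, with no length scaling and with RefSeq ends. Taking the transcript with the highest level per kb, or the median over transcripts, could change the level of 0 of the 10 genes, since none had a further length with another value, so these alternatives say nothing of stability for their levels. Without length scaling Fosl2 was above Fosl1. With RefSeq ends, Jund went from 3382 to 1960 mean normalised counts per kb and Junb from 3132 to 3079. Fosl1 went from 2512 to 2746 and Fosl2 from 1088 to 1213, while Jun, Fos, Atf3 and Egr1 stayed nearly the same. Both levels of a gene rest on the same reads, so these changes come from the length alone. Of 585 intronless coding genes checked, 41 had a RefSeq span over 1.5 times the GENCODE length, as Jund had. Reads per library were unique for the transcript differences of 2 genes at either tolerance.

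No paired analysis was possible because the values are means over all 6 libraries, with no value per named library. Leaving out each replicate in turn was not run for the same reason. Reads were sought only for means up to 62, and no full read count of any of the 10 genes was resolved by library.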

Other observations

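Reads in each of the 6 unnamed libraries were also resolved for the lowest gene with reads of each further list other than the cell type markers. In the order of the step of 1 read, Mmp9 had 2, 4, 34, 5, 33 and 43 reads, and Dusp2 had 60, 56, 11, 58, 11 and 17. Both sets of values fell into separate clusters, with libraries 1, 2 and 4 low in Mmp9 and high in Dusp2. The libraries carry no name, so these clusters were given no group and no test. Egr4 had 5, 7, 1, 3, 2 and 0 reads, Mapk10 had 3, 1, 0, 0, 0 and 0, and Batf had 2, 1, 0, 0, 0 and 0.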
